A study of Mus musculus with 12 samples.

Results

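Long intergenic noncoding RNAs (lincRNAs) are RNA polymerase II transcripts that encode no known protein and are annotated between protein-coding genes. Some act as nuclear scaffolds, some are the spliced host transcripts from which microRNAs are cut, and many have no known function. In T cells the host transcripts of miR-155 and of the miR-17 to miR-92 cluster are known for their response to activation. The lincRNAs described here are the 119 genes with GENCODE M21 gene type lincRNA, leaving out Gas5 and the Snhg genes, that averaged at least 3 CPM (estimated counts scaled to the library's total) over 11 of the 12 libraries. They come from 3183 lincRNA genes that the rule could choose from and from 45321 genes in all, and 3064 lincRNA genes fell under the threshold. They were chosen by their mean level in these same libraries, so a high level is no finding about them. Just inside the threshold were Gm19619 at 3.15 CPM, Gm20939 at 3.10 CPM and E230001N04Rik at 3.02 CPM, and just outside were Gm26764 at 2.98 CPM, Gm26538 at 2.98 CPM and Gm6410 at 2.82 CPM. Of the 119, 78 averaged 3 CPM or more in each of the 4 groups of those 11 libraries, and 41 reached the mean through some groups only, so those 41 had to differ between groups to some degree.

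Total CD4+ T cells came from spleens of C57BL/6 mice and were purified untouched, by taking away the other cells. CsA_PI cells had cyclosporin A (CsA, 1 µM) for 1 h and then PMA (10 nM) with ionomycin (1 µM) for 2 h. Cells of the ethanol_PI group had the ethanol vehicle for 1 h and the same PMA and ionomycin. CsA_US cells had CsA for 1 h and no stimulation, and ethanol_US cells had ethanol and no stimulation. The stimulus acts through protein kinase C (PMA) and through calcium (ionomycin), and CsA inhibits calcineurin, on which NFAT transcription factors depend to enter the nucleus. Each group had 3 SMART-seq libraries of 10523816 to 18468044 estimated counts, and the labels do not say that they came from separate animals, so the error behind each p-value is that among libraries and may be technical only. In bulk libraries, fewer cells of a type and less RNA per cell cannot be told apart.

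The CD4 T cell markers summed to 2114 to 4072 CPM in the 12 libraries, and none of the 6 was at 0. Replicate 2 of each group also carried more RNA of other cells: the 5 B cell markers summed to 300.7 to 910.5 CPM in those 4 libraries, against 64.5 to 147.1 CPM in replicates 1 and 3. The 6 myeloid markers summed to 174 to 191 CPM in replicate 2, against 33.6 to 54.2 CPM in the others, and the part of these cells in the results was not tested. The library labelled CsA_PI 2 stood apart from CsA_PI 1 and 3 in several lincRNAs below, so the counts over lincRNAs and most results on CsA_PI are given with all 12 libraries and again from the 11 others. Levels are TMM-scaled CPM unless stated, which are comparable between libraries for a gene but not between genes of different length.

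Of the 119 lincRNAs, 5 hold annotated microRNAs on the same strand, and the mature sequences of the 2 hosts that stimulation moved most are shown here from RefSeq (GRCm38.p6), 5′ to 3′, with the seed (bases 2 to 8) in capitals. Mir155hg (ENSMUSG00000097418.7, chr16:84703167-84715245, plus strand, mm10) carries miR-155, and Mir17hg (ENSMUSG00000089726.2, chr14:115042879-115046727, plus strand) carries 6 hairpins. In the cluster miR-17-5p and miR-20a-5p share a seed, and so do miR-19a-3p and miR-19b-3p. The libraries measured the host transcripts and not the mature microRNAs.

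miR-155-5p: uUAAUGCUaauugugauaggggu
miR-17-5p: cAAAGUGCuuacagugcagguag
miR-20a-5p: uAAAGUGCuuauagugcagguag
miR-18a-5p: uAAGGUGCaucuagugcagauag
miR-19a-3p: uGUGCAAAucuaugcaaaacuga
miR-19b-3p: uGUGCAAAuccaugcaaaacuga
miR-92a-3p: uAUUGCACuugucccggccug

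Stimulation of vehicle-treated cells (ethanol_PI over ethanol_US) raised 22 of the 119 lincRNAs and lowered 22 at an adjusted p under 0.05 in edgeR's quasi-likelihood test. Over all 14398 genes tested, 20.1% were higher and 19.7% lower, and of the lincRNAs 18.5% each way. Restricted to genes averaging 3 CPM or more, 25.3% were higher and 24.3% lower. Of the 78 lincRNAs at 3 CPM or more in every group 14 were higher and 5 lower (17.9% and 6.41%), and of the 41 others 8 were higher and 17 lower, the lincRNAs whose difference the choice by mean level favours. The median log2 fold change was 0.04 over the 119 lincRNAs and -0.02 over all genes tested. The fit leaves out the pairing of libraries by replicate number. With that number as a block, 25 lincRNAs were higher and 23 lower, beside 21.3% and 20.6% of all genes tested. Without CsA_PI 2 the counts were 29 higher and 26 lower (24.4% and 21.8%), and all 44 calls from 12 libraries were among these 55. Of 15057 genes 20.8% were then higher and 22.9% lower, and of genes averaging 3 CPM or more 26.9% and 29.2%. The split depends on scaling: with library totals in place of TMM, 14 lincRNAs were higher and 44 lower, but so were 11% and 37.8% of all genes, whose median log2 fold change was then -0.63.

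**Figure D1:**
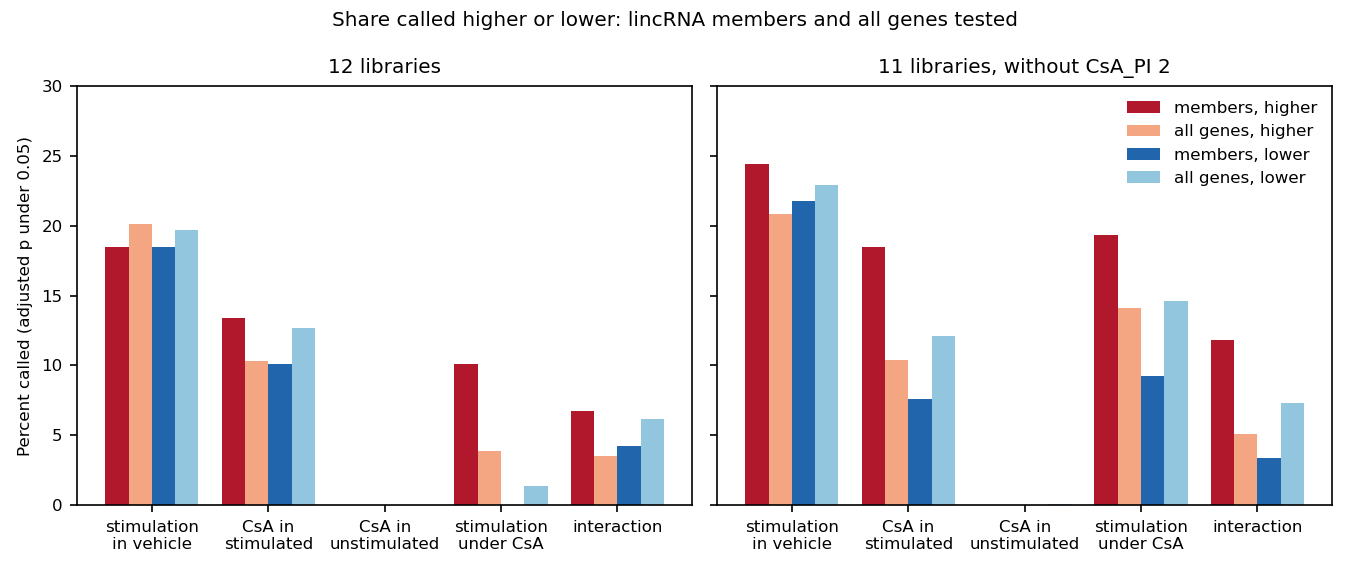
Percent of the 119 lincRNAs (dark bars) and of all genes tested (pale bars) called higher (red) or lower (blue) in each comparison, at an edgeR adjusted p under 0.05, from 12 libraries (left) and from 11 (right). In stimulation of vehicle-treated cells the lincRNA bars, 18.5% each way with 12 libraries, stand beside 20.1% and 19.7% of all genes. The shares of genes averaging 3 CPM or more, there 25.3% and 24.3%, are not drawn.

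Mir155hg, the host of miR-155, stood at 351.6, 344 and 422 CPM in ethanol_PI cells, against 8.63, 5.37 and 8.03 CPM in ethanol_US cells. The groups were far apart, and the log2 fold change was 5.66 (SE 1.01, adjusted p = 0.00154, edgeR). Of its reads in ethanol_PI cells, 98.3% were assigned to 1 of its 2 listed transcripts, and 100% of those in ethanol_US cells. Mir17hg, the host of the miR-17 to miR-92 cluster, which promotes lymphocyte proliferation, was at 152, 158 and 209.5 CPM in ethanol_PI cells and at 23.5, 12.9 and 15.1 CPM in ethanol_US cells. Every ethanol_PI value lay above every ethanol_US value, with a log2 fold change of 3.33 (SE 0.35, adjusted p = 2.09e-05, edgeR). Pvt1, the lincRNA downstream of the Myc oncogene (chr15:62037986-62378096, plus strand), was at 56.8, 47.3 and 41.6 CPM in ethanol_PI cells, against 6.83, 8.43 and 9.49 CPM in ethanol_US cells. Its log2 fold change was 2.56 (SE 0.23, adjusted p = 9.63e-06, edgeR).

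Gm17322 (chr9:57998041-58007451, plus strand) had the largest log2 fold change among the called lincRNAs. It is one of the 41 and passed 3 CPM in ethanol_PI cells only, so its rise is no independent support. It was at 29.0, 23.0 and 35.4 CPM in ethanol_PI cells, against 0.451, 0.708 and 0.291 CPM in ethanol_US cells, where 3 counts correspond to 0.169 to 0.177 CPM. The log2 fold change was 5.89 (SE 0.66, adjusted p = 3.46e-05, edgeR). Gm17322 overlaps exons of the steroid enzyme gene Cyp11a1 on the same strand and shares 5.42% of its 31-base words with it, but Cyp11a1 itself was at 2.26, 3.10 and 0.985 CPM in ethanol_PI cells and 0.282, 1.95 and 0.757 CPM in ethanol_US cells and was not called. Also high in all 3 ethanol_PI libraries were 2700038G22Rik, which averaged under 3 CPM in ethanol_US cells and is also one of the 41, at 24.0, 23.0 and 28.0 CPM against 1.81, 2.71 and 1.92 CPM in ethanol_US cells, with a log2 fold change of 3.54 (SE 0.57, adjusted p = 0.000453, edgeR), and Gm28592. The log2 fold change of Gm28592 was 3.25 (SE 0.50, adjusted p = 0.000307, edgeR). Gm28592, at 34.7, 30.5 and 37.0 CPM in ethanol_PI cells and 4.06, 2.54 and 4.08 CPM in ethanol_US cells, lies antisense within Phlda1 and shares 94.1% of its 31-base words with that coding gene. Phlda1 rose as well, by 3.21 on the log2 scale (adjusted p = 0.00107, edgeR). The strand setting of the deposited quantification is not given in the sources used here, so reads of this pair cannot be told apart.

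Falls with stimulation were led by AI480526, Gm9889, BC043934, Gm38102, AW112010 and Gm26551. All but AW112010 are among the 41: over the 11 libraries the first 4 averaged 3 CPM or more in the unstimulated groups only, and Gm26551 was under it in ethanol_PI cells only, so these 5 entered through the groups where they are high. AW112010 is an interferon-induced transcript of mouse lymphoid and myeloid cells, annotated as noncoding, for which a translated product has been described. It was at 27.2, 33.2 and 29.6 CPM in ethanol_PI cells, against 191, 181 and 198.5 CPM in ethanol_US cells. The groups did not overlap, and the log2 fold change was -2.67 (SE 0.35, adjusted p = 0.000105, edgeR). Gm9889 fell to 0.834, 0.582 and 0.493 CPM in ethanol_PI cells, against 8.40, 6.61 and 8.50 CPM in ethanol_US cells, by 3.61 on the log2 scale (SE 0.43, adjusted p = 5.15e-05, edgeR). AI480526 was at 0.834, 0.194 and 0.739 CPM in ethanol_PI cells, against 12.6, 9.02 and 10.7 CPM in ethanol_US cells, a log2 fold change of -4.21 (SE 0.75, adjusted p = 0.000966, edgeR). AI480526 and Gm38102 lie on opposite strands of one locus and Gm38102 shares 72.8% of its 31-base words with AI480526, so their falls are not separate measurements. Gm38102 changed by -3.21 and BC043934 by -3.22 on the log2 scale, each with an adjusted p under the threshold (0.0069 and 0.00328, edgeR).

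Neat1, the scaffold RNA of paraspeckles (chr19:5824708-5845478, minus strand), was lower by less. Its levels were 25.0, 30.7 and 34.9 CPM in ethanol_PI cells and 66.1, 69.3 and 44.6 CPM in ethanol_US cells. The groups did not overlap, and the log2 fold change was -0.99 (SE 0.24, adjusted p = 0.00601, edgeR). Of its listed transcripts, 2 held nearly all its reads in the authors' assignment, with 51.3% and 48.7% in ethanol_PI cells and 59.5% and 40.3% in ethanol_US cells. Malat1, a nuclear speckle RNA (chr19:5795690-5802672, minus strand) and one of the highest lincRNAs per length at 3884 TPM over the 12 libraries, was at 1050, 792 and 1062 CPM in ethanol_PI cells and 1590, 834 and 1309 CPM in ethanol_US cells. Those ranges overlap, and the log2 fold change of -0.36 (SE 0.27) was not called (adjusted p = 0.317, edgeR).

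**Figure D2:**
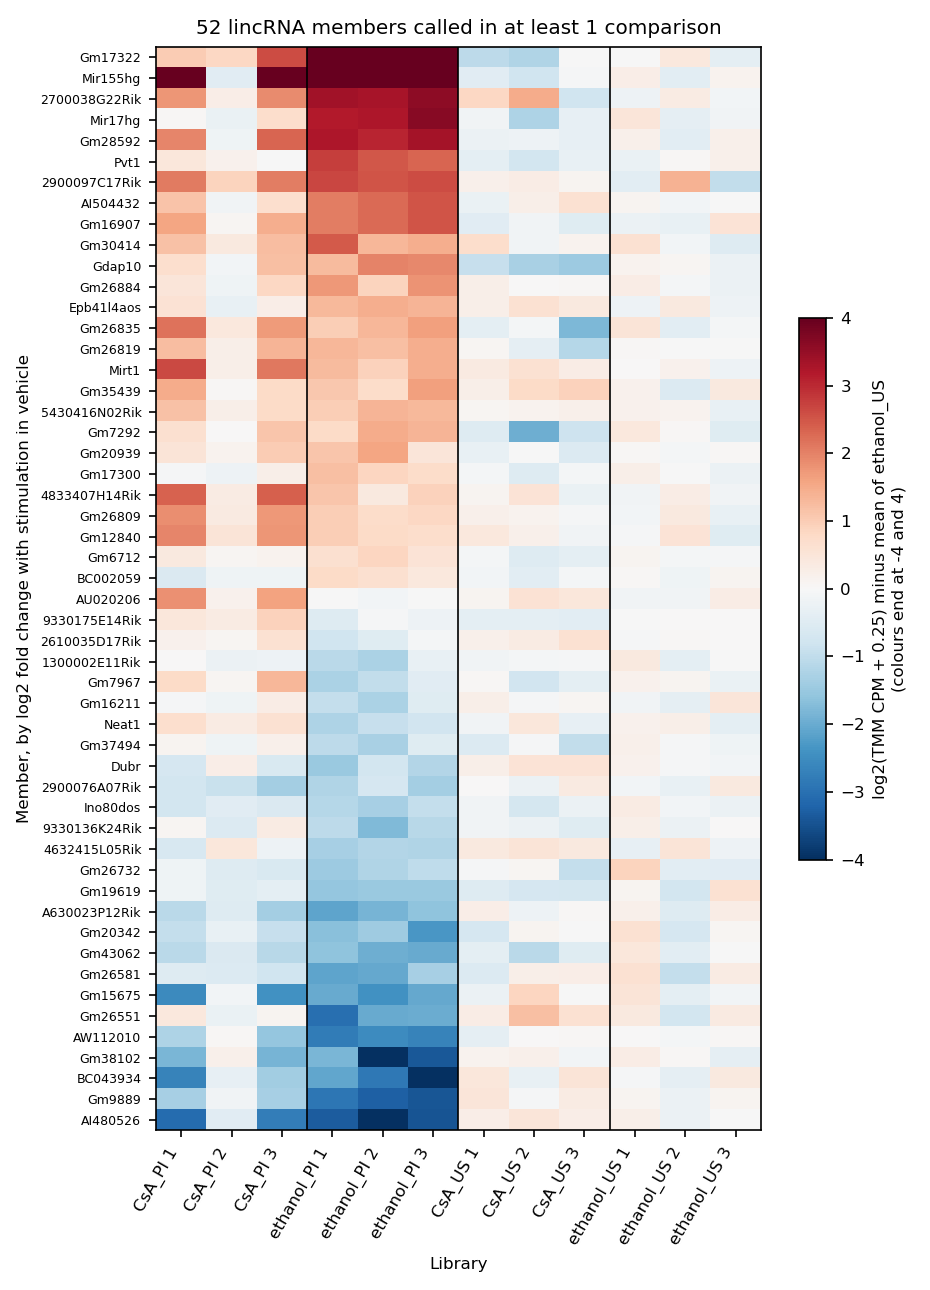
Level of the 52 lincRNAs called in at least 1 comparison in each of the 12 libraries, as log2(TMM CPM + 0.25) minus the mean of the ethanol_US libraries, with red higher and blue lower. The library labelled CsA_PI 2 differs from CsA_PI 1 and 3 in Mir155hg, which is at 5.19 CPM there, and in AI480526 and AW112010, which are at 7.78 and 198 CPM there.

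CsA in stimulated cells (CsA_PI over ethanol_PI) left 16 of the 119 lincRNAs higher and 12 lower, against 10.3% and 12.7% of all 14398 genes tested. As shares of the lincRNAs these were 13.4% and 10.1%, and of genes averaging 3 CPM or more 13.0% were higher and 16.8% lower. Without CsA_PI 2 there were 22 higher and 9 lower, which is 18.5% and 7.56%, against 10.4% and 12.1% of 15057 genes. Of genes averaging 3 CPM or more, 13.7% were then higher and 16.7% lower. Of the 28 calls from 12 libraries, 19 were also made from 11. With the replicate number as a block and 12 libraries, 14 were higher and 13 lower, beside 10.6% and 13.9% of all genes tested. The median log2 fold change was 0.22 over the lincRNAs and 0.06 over all genes tested with 12 libraries, and 0.37 and 0.05 with 11. Among the 78 lincRNAs at 3 CPM or more in every group, 7 were higher and 8 lower with 12 libraries and 14 and 7 with 11. With library totals 33 of the 119 were higher and 7 lower, beside 19.9% and 8.29% of all genes, with a median over all genes of 0.40. Without ethanol_PI 1 there were 9 higher and without ethanol_PI 2 there were 8, and without ethanol_PI 3 there were 6 lower.

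Mir17hg was lower in all 3 CsA_PI libraries, at 17.3, 13.9 and 27.2 CPM, against 152, 158 and 209.5 CPM in ethanol_PI cells. The CsA_PI values overlap the 15.1, 6.97 and 13.1 CPM of CsA_US cells through CsA_PI 2 only, and CsA_PI 1 and 3 lay above them. The log2 fold change of CsA_PI over ethanol_PI was -3.16 (SE 0.35, adjusted p = 5.79e-05, edgeR) and -2.93 with 11 libraries. Pvt1 was at 11.3, 9.14 and 8.04 CPM in CsA_PI cells, against 56.8, 47.3 and 41.6 CPM in ethanol_PI cells, a log2 fold change of -2.35 (SE 0.23, adjusted p = 2.72e-05, edgeR) and -2.28 with 11 libraries. Neither group overlapped the other for these genes. Gm17322 was at 1.19, 1.02 and 4.12 CPM in CsA_PI cells, against 29.0, 23.0 and 35.4 CPM in ethanol_PI cells, with a log2 fold change of -3.81 (SE 0.59, adjusted p = 0.000642, edgeR) and -3.44 with 11 libraries. 2700038G22Rik, at 7.85, 2.59 and 8.53 CPM in CsA_PI cells and 24.0, 23.0 and 28.0 CPM in ethanol_PI cells, was lower by a log2 fold change of -1.99 (SE 0.53, adjusted p = 0.0174, edgeR) and -1.57 with 11 libraries, and without ethanol_PI 3 the value was -1.89 (adjusted p = 0.0539, edgeR). AI504432 was at 11.7, 4.64 and 8.33 CPM in CsA_PI cells, against 22.1, 25.7 and 30.3 CPM in ethanol_PI cells, without overlap, and its log2 fold change was -1.66 (SE 0.34, adjusted p = 0.00349, edgeR) and -1.33 with 11 libraries. Gm28592 was at 14.1, 3.07 and 18.3 CPM in CsA_PI cells, against 34.7, 30.5 and 37.0 CPM in ethanol_PI cells. It was lower, at -1.53 (adjusted p = 0.0316, edgeR) and -1.03 with 11 libraries, but not called without any single ethanol_PI library (adjusted p = 0.06 to 0.0876, edgeR).

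Mir155hg gave another picture. It was at 159.7 and 213 CPM in CsA_PI 1 and 3 but at 5.19 CPM in CsA_PI 2, against 351.6, 344 and 422 CPM in ethanol_PI cells. All CsA_PI values lay under all ethanol_PI values, yet CsA_PI 2 was at the level of the unstimulated libraries. With 12 libraries the log2 fold change was -1.57 (SE 0.84, adjusted p = 0.22, edgeR), and with 11 it was smaller and called, at -0.97 (SE 0.23, adjusted p = 0.00878, edgeR). In CsA_PI 2, Il2, the growth factor gene that NFAT drives, was at 2.59 CPM, against 25.4 and 23.3 CPM in CsA_PI 1 and 3. Il2 was at 2.26, 2.42 and 1.16 CPM in ethanol_US cells, so CsA_PI 2 was near the unstimulated level in this gene too.

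Neat1 was higher with CsA, at 93.3, 74.3 and 90.3 CPM in CsA_PI cells, against 25.0, 30.7 and 34.9 CPM in ethanol_PI cells. The 52.9, 80.3 and 46.6 CPM of CsA_US cells overlap those of CsA_PI cells through CsA_PI 2 only, and CsA_PI 1 and 3 lay above them. Neat1 was not called in CsA_PI over CsA_US with 12 or 11 libraries. The log2 fold change of CsA_PI over ethanol_PI was 1.51 (SE 0.24, adjusted p = 0.00082, edgeR) and 1.64 with 11 libraries. AW112010 was at 80.0, 198 and 65.0 CPM in CsA_PI cells, against 27.2, 33.2 and 29.6 CPM in ethanol_PI cells. Its highest value was in CsA_PI 2, and the log2 fold change was 1.93 (SE 0.34, adjusted p = 0.00149, edgeR) with 12 libraries and 1.31 (SE 0.16, adjusted p = 8.36e-05, edgeR) with 11. Gm9889 was at 2.93, 7.03 and 2.94 CPM in CsA_PI cells, against 0.834, 0.582 and 0.493 CPM in ethanol_PI cells, with a log2 fold change of 2.75 (SE 0.43, adjusted p = 0.000646, edgeR) and 2.23 with 11. Gm26551 was at 10.2, 6.21 and 8.13 CPM in CsA_PI cells, against 0.715, 1.65 and 1.73 CPM in ethanol_PI cells, with a log2 fold change of 2.57 (SE 0.44, adjusted p = 0.00124, edgeR) and 2.77 with 11 libraries. Gm7967 was at 12.5, 7.71 and 18.4 CPM in CsA_PI cells and 2.86, 3.49 and 5.17 CPM in ethanol_PI cells, a log2 fold change of 1.74 (SE 0.37, adjusted p = 0.00483, edgeR) and 2.04 with 11.

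Other calls in this comparison rested on CsA_PI 2. Between 12 and 11 libraries 9 calls were lost and 12 gained. The log2 fold change of AI480526 was 2.57 (adjusted p = 0.0265, edgeR) with 12 libraries and 1.09 (adjusted p = 0.11, edgeR) with 11, since it stood at 7.78 CPM in CsA_PI 2 and at 1.03 and 1.37 CPM in CsA_PI 1 and 3. Gm38102, at the same locus, was at 2.34 and 1.25 in these 2 fits and was not called with 11 (adjusted p = 0.216, edgeR). With the replicate number as a block neither AI480526 (adjusted p = 0.0552, edgeR) nor Gm38102 (adjusted p = 0.0652, edgeR) was called.

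Mirt1, a lincRNA of chromosome 19 named for its rise after myocardial infarction in mice, was highest with both agents in CsA_PI 1 and 3. It was at 26.7, 4.84 and 18.6 CPM in CsA_PI cells, against 10.4, 8.05 and 11.7 CPM in ethanol_PI cells, 5.42, 6.47 and 5.10 CPM in CsA_US cells and 4.17, 4.72 and 3.55 CPM in ethanol_US cells. CsA_PI 2 lay with the unstimulated libraries. With 11 libraries Mirt1 was called in CsA_PI over ethanol_PI, at a log2 fold change of 1.22 (adjusted p = 0.00473, edgeR), and with 12 it was not, at 0.74 (adjusted p = 0.276, edgeR). Its rise with stimulation in vehicle, 1.27 (adjusted p = 0.0433, edgeR), was not called with the replicate block (1.24, adjusted p = 0.0513, edgeR), and the call was also lost without CsA_PI 3 or any 1 library of ethanol_PI, CsA_US or ethanol_US (adjusted p = 0.0559 to 0.138, edgeR). The antisense partner 4833407H14Rik, named after its values were seen, Gm26809 and Gm12840 did likewise: with 11 libraries 4 lincRNAs, these and Mirt1, were higher in ethanol_PI over ethanol_US and higher again in CsA_PI over ethanol_PI. The share of all genes with this pattern was not counted, so the 4 are given as a description. With 12 libraries the lincRNAs higher by stimulation in vehicle were all either lower with CsA in stimulated cells (12) or not called there (10). Gm26809 was at 4909, 1747 and 4470 CPM in CsA_PI cells, against 2663, 2269 and 2407 CPM in ethanol_PI cells. Gm12840 shares 59.8% of its 31-base words with Gm26809, so these are not separate measurements either.

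**Figure D3:**
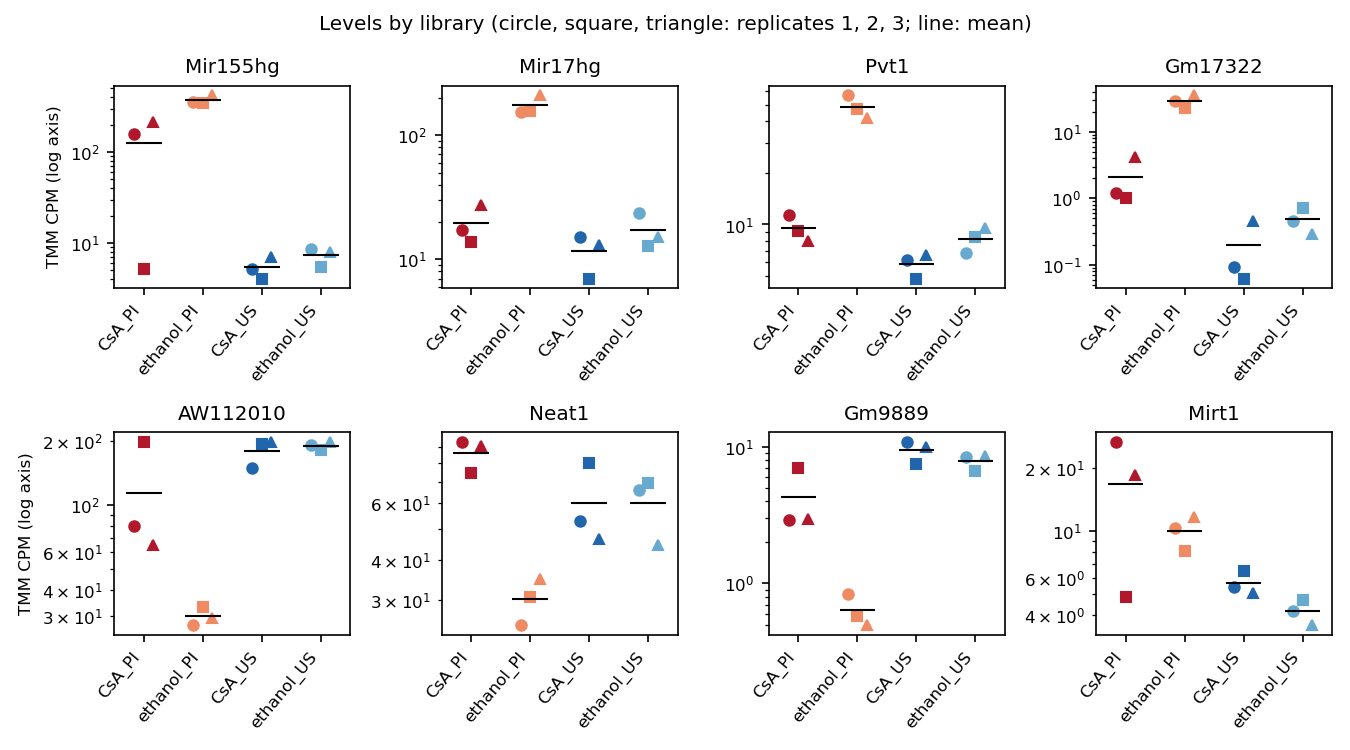
TMM CPM (log axis) of 8 lincRNAs in each library, by group, with circles, squares and triangles for replicates 1, 2 and 3 and a line at the mean of 3. Mir17hg, Pvt1 and Gm17322 are high only in ethanol_PI cells among these groups, Mir155hg reaches 159.7 and 213 CPM in CsA_PI 1 and 3, and AW112010, Neat1 and Gm9889 are lowest in ethanol_PI cells.

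Taking stimulation in vehicle and CsA in stimulated cells side by side, 12 lincRNAs were higher by stimulation and lower with CsA, and 12 were lower by stimulation and higher with CsA. Each is 10.1% of the lincRNAs, against 11.4% and 8.7% of all genes tested and 15% and 11.1% of genes averaging 3 CPM or more. With 11 libraries there were 9 of each, or 7.56%, against 9.63% and 7.05% of all genes tested and 13.4% and 9.52% of genes averaging 3 CPM or more. Both comparisons share the ethanol_PI libraries, so a low or high value there enters both with opposite sign, and the counts are given as a description. The first 12 were Mir17hg, Pvt1, Gm17322, 2700038G22Rik, Gm28592, AI504432, Gm16907, Gdap10, Epb41l4aos, BC002059, Gm17300 and Gm26884. The others were Neat1, AW112010, Gm9889, Gm26551, AI480526, Gm38102, Gm43062, Gm19619, 9330136K24Rik, 4632415L05Rik, A630023P12Rik and Gm16211. Of these, AI480526, Gm38102 and A630023P12Rik (adjusted p = 0.0509, edgeR) were not called with CsA under the replicate block. Gm17322, 2700038G22Rik, Epb41l4aos and Gm26884 of the first 12 are among the 41 lincRNAs that averaged under 3 CPM in some group. So are Gm9889, Gm26551, AI480526, Gm38102, Gm43062, Gm19619, 9330136K24Rik and 4632415L05Rik of the others, each of which averaged under it in ethanol_PI cells. The choice by mean level favoured a difference in these, so their calls are no independent support.

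The interaction, which is the effect of stimulation under CsA minus that in vehicle, was called for 13 of the 119 lincRNAs. Of these, 8 were positive and 5 negative, against 3.54% and 6.19% of all genes tested, and as shares of the lincRNAs 6.72% and 4.20%. Of genes averaging 3 CPM or more 4.57% were positive and 8.41% negative. Of the 78 lincRNAs at 3 CPM or more in every group 3 were positive and 3 negative (3.85% each). Of the 41 others, whose difference the choice by mean level favours, 5 were positive and 2 negative (12.2% and 4.88%). With 11 libraries 14 of the 119 were positive and 4 negative, with 7 and 3 of these among the 78. The shares were then 5.08% and 7.31% of all genes tested and 6.91% and 10.3% of genes averaging 3 CPM or more. Leaving out 1 library at a time gave 2 to 14 positive and 2 to 5 negative calls, with 2 positive ones without ethanol_PI 1. The 5 negative ones, in which the stimulation effect was lower under CsA than in vehicle, were 2700038G22Rik at -2.81, Mir17hg at -2.60, AI504432 at -1.89, Pvt1 at -1.87 and Epb41l4aos at -1.65 on the log2 scale. Of the positive ones, Gm9889 at 2.48 and AW112010 at 2.01 had adjusted p of 0.0145 and 0.0182 (edgeR). Mir17hg (adjusted p = 0.00465, edgeR), Pvt1 (adjusted p = 0.00369, edgeR) and Gm9889 were called whichever 1 library was left out. AW112010 was not called without ethanol_PI 1, at 1.94 (adjusted p = 0.0558, edgeR), and the calls of 2700038G22Rik, AI504432, Epb41l4aos, 9330136K24Rik, Gm19619, Gm43062 and Gm7967 were each lost without any 1 of several libraries. With the replicate block 2700038G22Rik (adjusted p = 0.052, edgeR) and Epb41l4aos (adjusted p = 0.0559, edgeR) were not called.

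Stimulation under CsA (CsA_PI over CsA_US) was called higher for 12 of the 119 lincRNAs and lower for 0, against 3.90% and 1.38% of all genes tested and 5.17% and 1.82% of genes averaging 3 CPM or more. At an unadjusted p under 0.05 there were 38 either way, and DESeq2 called 19 higher and 4 lower. With 11 libraries there were 23 higher and 11 lower, or 19.3% and 9.24%, against 14.1% and 14.6% of all genes tested and 18.6% and 19.6% of genes averaging 3 CPM or more. With all 12 libraries the 12 adjusted p lay between 0.0395 and 0.0474, close to the threshold. With the replicate block 8 were higher and 0 lower, against 2.51% and 0.549% of all genes tested. The block ended the calls of Gm26809, Gm12840, 4833407H14Rik, Gm16907 and Gm26835 and added Gm12505. There were 0 higher without CsA_PI 1 or 3, without any 1 of the CsA_US or ethanol_PI libraries, or without ethanol_US 1, 2 without ethanol_US 3 and 12 without ethanol_US 2. Mir155hg was at 159.7, 5.19 and 213 CPM in CsA_PI cells, against 5.18, 4.01 and 6.97 CPM in CsA_US cells, with overlap through CsA_PI 2, and its log2 fold change was 4.55 (adjusted p = 0.0422, edgeR) with 12 libraries and 5.09 (SE 0.26, adjusted p = 1.21e-07, edgeR) with 11. Mir17hg was not called here, at 0.73 with 12 libraries and 0.88 with 11 (adjusted p = 0.186 and 0.0728, edgeR). Gdap10 and Gm28592 were called in both fits, at 1.93 and 2.04 with 12 libraries and 2.18 and 2.47 with 11.

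CsA in unstimulated cells (CsA_US over ethanol_US) gave 0 calls among the lincRNAs in edgeR with 12 libraries and 0 with 11, and 0 in DESeq2. At an unadjusted p under 0.05 there were 5 of 119 with 12 libraries. Over all genes tested 0% were higher and 0.00695% lower with 12 libraries, and 0.00664% and 0.0398% with 11. Gdap10 was at 9.56, 7.34 and 6.60 CPM in CsA_US cells, against 20.3, 19.6 and 15.7 CPM in ethanol_US cells. These groups did not overlap, but the log2 fold change of -1.24 (SE 0.32) was not called, with an edgeR adjusted p of 0.167 from 11 libraries and 1 from 12.

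In all, 67 of the 119 lincRNAs (56.3%) were called in no comparison with 12 libraries, against 56.4% of all genes tested and 45.7% of genes averaging 3 CPM or more. With 11 libraries the number was 51 (42.9%), against 47.4% and 33.2%. Xist, the RNA that coats the inactive X chromosome, was at 265, 175 and 193 CPM in CsA_PI cells, 161, 208 and 169.9 CPM in ethanol_PI cells, 101, 267 and 185.5 CPM in CsA_US cells and 153, 164 and 134 CPM in ethanol_US cells. Its ranges overlapped in each comparison. Ftx, a neighbour of Xist that hosts miR-374b and miR-421, averaged 6.78 ± 0.76 CPM in CsA_PI cells, 4.15 ± 0.61 in ethanol_PI cells, 5.75 ± 0.50 in CsA_US cells and 5.34 ± 1.41 in ethanol_US cells (SD, n = 3 each). Mir142hg, host of the blood-cell microRNA miR-142, averaged 6.82 ± 3.10 CPM in CsA_PI cells, 5.26 ± 1.28 in ethanol_PI cells, 4.79 ± 1.03 in CsA_US cells and 3.20 ± 0.30 in ethanol_US cells (SD, n = 3 each). None of the 3 was called in any comparison in the fits with 12 or 11 libraries.

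The 3 lincRNAs AY036118, Gm42418 and Gm26917 sit at one place on chromosome 17. AY036118 (chr17:39847113-39848035, minus strand) and Gm42418 overlap the 18S ribosomal RNA gene Rn18s-rs5 that RefSeq places at chr17:39846354-39848202, and Gm26917 ends 13 bases before it. All the 31-base words of AY036118 (100%) are also in Gm42418. Together they took 3.05%, 1.83% and 1.22% of the counts in CsA_PI cells, 0.985%, 0.873% and 0.733% in ethanol_PI cells, 1.40%, 5.17% and 2.17% in CsA_US cells and 0.874%, 2.19% and 0.725% in ethanol_US cells. The CsA_US libraries differed most among themselves. None of the 3 genes was called in any comparison with 12 or 11 libraries, and AY036118 had a log2 fold change of CsA_PI over ethanol_PI of 0.92 (SE 0.56, adjusted p = 0.28, edgeR). The other 116 lincRNAs took 0.463% to 0.825% of the counts of a library.

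**Figure D4:**
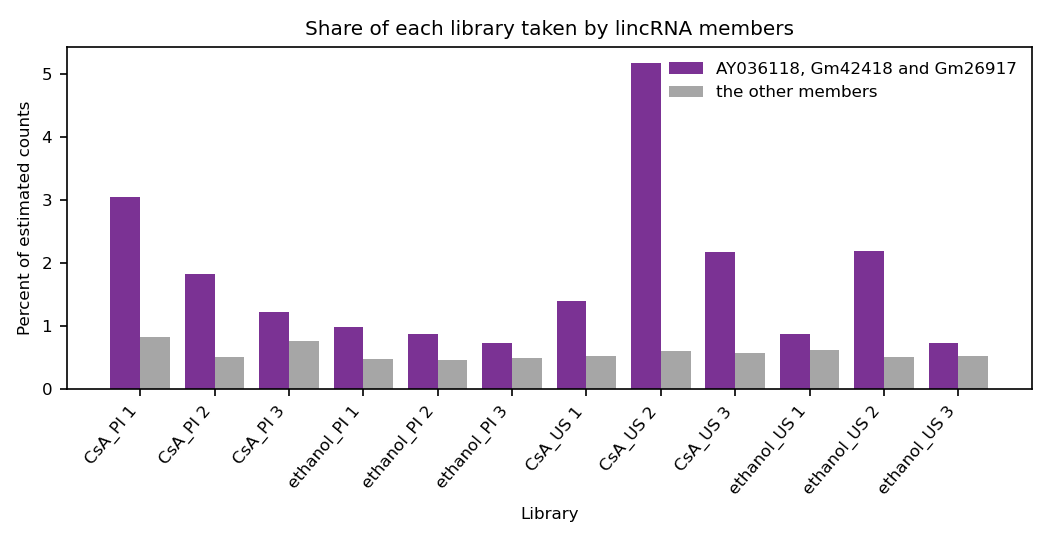
Percent of estimated counts in each library taken by the 3 lincRNAs at the ribosomal RNA locus (purple) and by the other lincRNAs (grey). The purple bars range from 0.725% to 5.17% with the widest spread within CsA_US cells, and the grey bars from 0.463% to 0.825%.

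The lincRNAs differ in how well their reads can be assigned. Exons of 57 overlap those of another gene, 13 on the same strand and 50 on the opposite one, and 26 share more than 50% of their 31-base words with another annotated gene. Gm10076 shares 82.2% of its words with the ribosomal protein gene Rpl41 and Gm29562 shares 52.3% with Noct, so their levels are uncertain. Gm7292 shares 85.9% with 2900097C17Rik, which RefSeq lists as Norad, a cytoplasmic lincRNA that binds Pumilio proteins. This gene, chosen here after its values were seen, was at 10.96, 9.90 and 10.6 CPM in ethanol_PI cells, against 1.07, 4.36 and 0.640 CPM in ethanol_US cells, a log2 fold change of 2.37 (adjusted p = 0.00647, edgeR). It averaged under 3 CPM in both unstimulated groups and is one of the 41, so its rise is no independent support. Among the 56 lincRNAs that share at most 10% of their words, 10 were higher and 13 lower with stimulation in vehicle, and among the 63 others 12 and 9. With CsA in stimulated cells these counts were 12 and 7 among the 56 and 4 and 5 among the 63, or 15 and 5 and 7 and 4 with 11 libraries. The shares of all genes called in these comparisons are those given above.

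A protein-coding gene started within 50 kb of 80 of the 119 lincRNAs. Gm9889 (chr3:115715150-115716728, plus strand) starts 78 bases from S1pr1, the receptor that lymphocytes need to leave lymphoid organs, in head-to-head orientation and without shared exons or 31-base words. S1pr1 was at 317.5, 481 and 314 CPM in CsA_PI cells, 27.5, 29.6 and 30.6 CPM in ethanol_PI cells, 818, 791 and 785 CPM in CsA_US cells and 639, 486 and 628 CPM in ethanol_US cells. Both were lowest in ethanol_PI cells and both were higher in CsA_PI 2 than in CsA_PI 1 and 3. In CsA_PI 2, Il2 and Mir155hg also lay near the unstimulated libraries, so the shift there is not particular to this pair. S1pr1 changed by -4.32 with stimulation in vehicle (adjusted p = 6.95e-07, edgeR) and by 3.67 with CsA in stimulated cells (adjusted p = 1.42e-06, edgeR), or 3.47 with 11 libraries.

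Gm26551 starts 13500 bases from Tcf7, which encodes the transcription factor TCF-1 of resting T cells. Gm26551 spans 319633 bases on the same strand as Tcf7. Whether reads from unspliced Tcf7 enter its count was not tested, so the 2 may not be separate measurements. Tcf7 was at 731, 559.7 and 736.5 CPM in CsA_PI cells, against 110.1, 80.7 and 133 CPM in ethanol_PI cells. Its log2 fold change was -2.76 with stimulation in vehicle and 2.65 with CsA in stimulated cells, beside -2.53 and 2.57 for Gm26551. AI504432 starts 3335 bases from Kcna3, a potassium channel gene of T cells, and the log2 fold changes were 3.41 and -2.07 for Kcna3 and 2.34 and -1.66 for AI504432 in the same comparisons. Gdap10 lies within the Nampt gene, which encodes an enzyme of NAD synthesis, and Nampt changed by 1.81 and -1.5, with 1.75 and -1.07 for Gdap10, so reads from unspliced Nampt cannot be told apart from Gdap10. Pvt1 starts 52595 bases from Myc, just past the distance used here and named after its values were seen, and Myc changed by 5.64 and -2.90, beside 2.56 and -2.35 for Pvt1. With 11 libraries the changes with CsA were 2.80 for Tcf7, -1.68 for Kcna3, -1.40 for Nampt and -2.36 for Myc. Each of these values was called, except that the Gdap10 change with CsA was not called with 11 libraries (adjusted p = 0.0546, edgeR).

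Neat1 starts 29796 bases from Frmd8, which changed by -3.81 and 2.92 in these comparisons, both called, beside -0.99 and 1.51 for Neat1. Pairs on opposite sides were also found: Gm38102 starts 1247 bases from Rhof, which was higher with stimulation in vehicle at 1.66 (adjusted p = 0.000307, edgeR) where Gm38102 was lower. Among pairs within 50 kb without shared exons or words and with a tested coding gene, 6 lincRNAs were higher by stimulation in vehicle, and of their neighbours 2 were higher and 0 lower. Of the neighbours of 11 lower lincRNAs, 5 were lower and 2 higher, and of the neighbours of 28 uncalled ones, 6 were lower and 7 higher. With CsA in stimulated cells, neighbours of 8 higher lincRNAs were higher in 4 pairs and lower in 0. For 3 lower lincRNAs these counts were 0 and 2, and for 34 uncalled ones 5 and 4. Of tested protein-coding genes averaging 3 CPM or more, 25.9% were higher and 25.3% lower with stimulation, and 13.5% and 17.6% with CsA. Gdap10 with Nampt is counted here, so these counts are a description. Mrpl39, the neighbour of Mir155hg, changed by 0.38 and was not called (adjusted p = 0.44, edgeR). D730003I15Rik, also named after its values were seen, starts 6415 bases head to head from Atf3, a stress-response factor gene, and was at 4.77, 3.98 and 3.33 CPM in ethanol_PI cells against 2.71, 3.54 and 1.63 CPM in ethanol_US cells without a call, while Atf3 changed by 4.63 (adjusted p = 0.000502, edgeR).

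**Figure D5:**
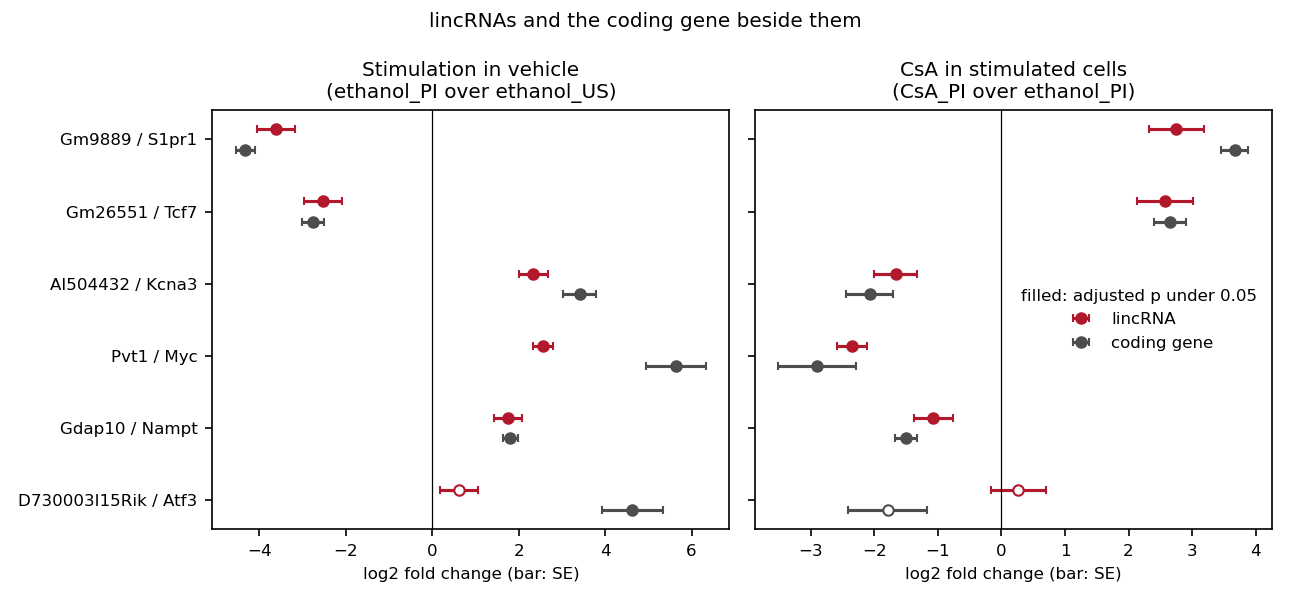
Log2 fold change with its SE of 6 lincRNAs (red) and of the coding gene beside each (grey), for stimulation in vehicle (left) and CsA in stimulated cells (right), with filled points called at an edgeR adjusted p under 0.05. In the 5 pairs other than D730003I15Rik and Atf3 both genes were called on the same side of 0 in both panels, and D730003I15Rik stayed near 0 where Atf3 was at 4.63 in the left panel. The 6 pairs were picked for the figure, so the 5 are no share of all pairs. Among pairs not shown, Gm38102 and Rhof were called on opposite sides with stimulation in vehicle. Lsm8 was at -1.26 there, beside 0.82 without a call for Gm26809.

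RefSeq has a promoter window of 300 bases, from 250 before to 50 after the start, for 45 of the lincRNAs, and in 35 that start lies within 100 bases of a GENCODE start. The motifs searched on both strands were AP-1 TGANTCA, NFAT TGGAAA, CRE TGACGTCA, an NF-kB motif and the E-box CACGTG, which are found in 7.81%, 21.4%, 1.79%, 0.411% and 7.15% of 32817 RefSeq promoter windows. Of the 35 windows, 5 held the AP-1 letters, 11 the NFAT letters, 1 the CRE, 0 the NF-kB letters and 3 the E-box. Among the 9 with a lincRNA called higher by stimulation in vehicle, 3 held the AP-1 letters (Mirt1, Gm16907 and Gm35439) and 4 the NFAT letters, and among the 7 called lower 0 and 2. The windows of Mirt1 (chr19:53464747-53465046, minus strand) and AW112010 (chr19:11050517-11050816, minus strand) are shown for a lincRNA that was higher with stimulation and one that was lower, with matches to AP-1 and NFAT letters on either strand in capitals. A match is a description of letters and not a measured site. The Mirt1 window holds both motifs, and its call with stimulation was lost in several fits, as given above. The usable windows of Mir155hg and 2700038G22Rik, also called higher, held 0 matches to the AP-1 letters and 0 to the NFAT letters.

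Mirt1: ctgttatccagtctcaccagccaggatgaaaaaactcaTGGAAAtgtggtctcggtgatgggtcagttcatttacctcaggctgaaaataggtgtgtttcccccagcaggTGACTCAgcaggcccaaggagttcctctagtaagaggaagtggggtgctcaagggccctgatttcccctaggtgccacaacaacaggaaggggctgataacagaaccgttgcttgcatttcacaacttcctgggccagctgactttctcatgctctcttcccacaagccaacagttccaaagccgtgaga
AW112010: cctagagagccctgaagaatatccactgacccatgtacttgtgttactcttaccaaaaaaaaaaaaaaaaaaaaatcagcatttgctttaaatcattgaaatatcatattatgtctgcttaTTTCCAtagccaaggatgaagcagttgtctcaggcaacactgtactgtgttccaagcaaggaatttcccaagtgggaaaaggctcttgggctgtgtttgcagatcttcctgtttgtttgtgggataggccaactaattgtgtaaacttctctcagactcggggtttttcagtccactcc

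Coding genes that work with these RNAs were counted by the same edgeR calls, and these counts depend on the scaling. Over all genes tested 20.1% were higher and 19.7% lower with stimulation in vehicle, and 10.3% and 12.7% with CsA in stimulated cells. With 11 libraries the CsA shares were 10.4% and 12.1%. With library totals the shares were 11% and 37.8% with stimulation and 19.9% and 8.29% with CsA. The lists are short and no set test was run, so the counts are a description. Of 11 paraspeckle protein genes, the partners of Neat1, 8 were higher and 0 lower with stimulation in vehicle, with a median log2 fold change of 0.97, while Neat1 itself was at -0.99. With library totals 3 were higher and 1 lower with stimulation in vehicle, at a median of 0.35, and Cpsf6, called higher with TMM at 0.50, was at -0.11 (adjusted p = 0.674, edgeR). Pspc1 changed by 2.12 and Sfpq by 1.15, and Nono, at -0.09, was not called. With CsA in stimulated cells 0 of these 11 were higher and 3 lower (Tardbp, Cpsf6 and Ewsr1), and with 11 libraries 2 were lower and with library totals 1 was higher and 1 lower. Of 11 nuclear speckle and splicing genes, where Malat1 sits, 8 were higher and 1 lower with stimulation in vehicle, and 0 were higher and 4 lower with CsA in stimulated cells, or 3 with 11 libraries. With library totals these counts were 4 higher and 2 lower with stimulation and 1 and 3 with CsA. Srsf7, a splicing factor gene, changed by 1.74 and -1.19 in these comparisons, and the kinase gene Clk1 was the one that fell, by 0.70.

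Of 13 microRNA processing genes 2 were higher and 4 lower with stimulation in vehicle, beside 20.1% and 19.7% of all genes tested. Ago2, the slicing Argonaute, changed by 1.85 and the exporter gene Xpo5 by 1.32, and the 4 lower were Ago1, Tnrc6a, Tnrc6b and Tnrc6c. With CsA in stimulated cells 1 was higher (Tnrc6a) and 1 lower (Xpo5), and the counts were also 1 and 1 with 11 libraries. Of all genes tested 10.3% were higher and 12.7% lower there with 12 libraries, and 10.4% and 12.1% with 11. Of 9 tested nuclear RNA exosome genes, which degrade many noncoding transcripts, 5 were higher and 0 lower with stimulation in vehicle, led by Dis3 at 2.61, and 0 and 2 with CsA in stimulated cells (1 and 2 with 11 libraries), where Dis3 was at -2.19. Of 11 genes named as miR-155 targets in lymphocytes 5 were higher and 3 lower with stimulation in vehicle, and 2 higher and 4 lower with CsA in stimulated cells with either 12 or 11 libraries. Socs1, which restrains cytokine signalling, changed by 3.0 and -1.61, and Ets1 by -1.65 and 1.13. With library totals the counts with stimulation in vehicle were 2 higher and 8 lower for microRNA processing, 3 and 1 for the exosome and 4 and 4 for the miR-155 targets. With CsA in stimulated cells they were 5 and 0, 0 and 2, and 2 and 4 for these lists in the same order. The shares of all genes tested were then 11% and 37.8% with stimulation and 19.9% and 8.29% with CsA.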

How the data were processed

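Total RNA was profiled by SMART-seq in 12 libraries of mouse splenic CD4+ T cells. The submitters' processing notes name cutadapt, kallisto and mm10; versions and transcript annotation are not given in the sources used here. The deposited tables hold, per the file headers, each transcript's estimated count, TPM, length and effective length in bases (unit other). Of 109617 transcripts, 108214 matched GENCODE M21. The others held 0.494% to 0.629% of a library's counts and were left out.

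The estimated counts were summed per gene and rounded. Tests used edgeR 4.0.16 in R 4.3.3 on all 12 libraries in 1 fit (TMM, expression filter by group with minimum count 10 and minimum total 15, quasi-likelihood, robust), with Benjamini-Hochberg adjustment over all genes tested and calls at 0.05. All 119 lincRNAs passed the filter. The SE is the absolute log2 fold change over the square root of F. Fits were tested on simulated data. Alternatives were RLE scaling, library totals, no filter, only the groups compared, the replicate block, DESeq2 1.42.0 and leaving out each library. A level from 3 counts was 0.162 to 0.285 CPM; reads had no molecular identifiers, so this covers counting error only. Reads shared between genes were assigned by the authors' kallisto run.

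The members, the 5 gene lists (microRNA processing, paraspeckle, nuclear speckle and splicing, RNA exosome, miR-155 targets), the marker lists and the motifs were chosen with earlier results of these data known. Genes named were known lincRNAs (10 of 27 listed were members by the symbols searched), the highest by TPM, in each comparison up to 6 largest rises and falls among called lincRNAs whose groups do not overlap, and coding genes starting within 50 kb. Norad was listed but not found under that symbol, so 2900097C17Rik was not counted among the 10. As the check on pairing, deviations from the group mean of libraries with the same number correlated at 0.143 to 0.319 for ethanol_PI with ethanol_US, 0.107 to 0.208 for CsA_PI with ethanol_PI and 0.196 to 0.325 for CsA_US with ethanol_US, so these were read as pairs by the labels' numbers, whose meaning the labels leave unstated. For CsA_PI with CsA_US the correlations were 0.0333 to 0.123. The fit without the block is the one reported, so its p-values leave this pairing out. The block is given beside a result where it ended a call, and it also ended that of Gm37494 with stimulation in vehicle. The block also made calls. With stimulation in vehicle it called 48 lincRNAs, against 44 without it, and 41.9% of all genes tested. It added Gm26825, 5031425E22Rik, Gm26853, Gm7967, Gm26848 and Gm26835 there. With CsA in stimulated cells it called 27, against 28, and 24.5% of all genes tested, and added 5031425E22Rik and E230001N04Rik.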

Additional observations from a re-analysis of the deposited data

Results flagged for a closer look

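For 13 lincRNAs the effect of stimulation differed between CsA-treated and vehicle-treated cells by the interaction test of edgeR (adjusted p under 0.05, 3 libraries a group). The differences, on the log2 scale with the vehicle effect subtracted from the CsA one, were -2.81 for 2700038G22Rik, -2.60 for Mir17hg, -1.89 for AI504432, -1.87 for Pvt1 and -1.65 for Epb41l4aos. They were 1.25 for 9330175E14Rik, 1.51 for Neat1, 1.64 for 9330136K24Rik, 1.66 for Gm43062, 2.01 for AW112010, 2.07 for Gm19619, 2.10 for Gm7967 and 2.48 for Gm9889. With 11 libraries 12 of the 13 were called, and Epb41l4aos was not, at -1.38 (adjusted p = 0.0659, edgeR). Among the 41 lincRNAs under 3 CPM in some group are 2700038G22Rik, Epb41l4aos, 9330136K24Rik, Gm43062, Gm19619, Gm7967 and Gm9889. The choice by mean level favoured a difference in these.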

How the results depend on the processing

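Under library totals the median of all genes lay at -0.63 in stimulation of vehicle-treated cells and 0.40 in CsA in stimulated cells, against -0.02 and 0.06 with TMM, and calls there are to be read against these shifts: 14 lincRNAs higher and 44 lower in the first comparison, 33 and 7 in the second, and 0 higher in stimulation under CsA. With only the groups compared there were 8 higher and 7 lower in CsA in stimulated cells and 0 in stimulation under CsA. DESeq2 gave 19 and 4 in stimulation under CsA. With the replicate block the negative interaction calls were 3 and stimulation under CsA had 8 higher, of which 7 were among the 12; the block with 11 libraries gave 26 and 13 there and 15 positive interaction calls, and this combined setting was chosen after seeing the data. Leaving out 1 library each gave 15 to 29 higher and 16 to 26 lower with stimulation in vehicle, 8 to 22 and 6 to 12 with CsA in stimulated cells (9 higher without ethanol_PI 1, 8 without ethanol_PI 2, 6 lower without ethanol_PI 3), 0 to 23 and 0 to 11 in stimulation under CsA, 2 to 14 positive and 2 to 5 negative interactions, and 0 with CsA in unstimulated cells. A threshold of 1 CPM gave 246 lincRNAs and one of 10 CPM gave 53. Of 1034 values of the named lincRNAs under alternatives, 862 kept their direction and call, 165 lost the call, 7 gained one and 0 reversed.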
